A study of Homo sapiens with 2 samples.

Results

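The sites described here lie in 15 short windows on 13 chromosomes that were picked as ribosomal-RNA-like copies in the nuclear genome. The members are the listed SRSF1 crosslink sites, on either strand, whose interval midpoint falls inside 1 of the 15 windows of the hg19 build. This gave 196 of 6754 listed sites (2.90%, exact Clopper-Pearson 95% interval 2.51 to 3.33%), of which 136 were truncation sites and 60 were mutation sites. The series holds 2 HITS-CLIP libraries, replicates 1 and 2 of 1 group, both from H1299, a long-established line of human lung cancer cells. No treatment, genotype change or control library is named for them. In HITS-CLIP, ultraviolet light links a protein to the RNA it touches, the protein is pulled down with that RNA, and the RNA fragments (tags) are sequenced.

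SRSF1 is an SR protein, a splicing factor with RNA-binding domains and a tail rich in arginine and serine. Ribosomal RNA is the most abundant RNA of a human cell. RNA polymerase I makes a long precursor of it in the nucleolus from tandem gene arrays on the short arms of the acrocentric chromosomes, and the precursor is cut into the small-subunit and large-subunit rRNAs. Fragments resembling these genes are scattered over many other chromosomes. The label rests on position alone. No hg19 sequence or annotation was used, so whether the 15 windows hold ribosomal-RNA-like sequence was not checked, and no sequence is printed. In a search of the RefSeq table for GRCh38.p14 by name, limited to the precursor (RNA45S) and the rRNAs cut from it (RNA18S, RNA28S and RNA5-8S) and their pseudogenes, entries were found on 6 of the 13 chromosomes (2, 9, 16, 20, 21 and Y), among them RNA28SP and RNA5-8SP5 on chromosome 2, RNA5-8SP2 on chromosome 16 and RNA18SP2 on chromosome Y. These entries could not be placed against the windows, because the builds differ.

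Each listed site is an interval with a strand and a tag count, over both replicates combined. A truncation site is a position where reverse transcription stopped. It carries the number of tags truncated there, the number expected there from its tag cluster, a run of overlapping tags (the expected tags, 1 value per cluster), and the authors' P. A mutation site is a position where tags differ from the reference; the kind of change is not listed. It carries the number of tags covering it and the number mutated. The tag counts of the 2 kinds are therefore different quantities and were compared within a kind. The field names of the list are read here as the CTK toolkit uses them, which the labels do not state. The list has no column per replicate, so no value below has a replicate check. The windows were chosen by position, after loci with high tag counts and many sites had been seen in these same data, so the tag counts and densities are given as a description, without a test. How reads with several possible places were treated is not given in the sources used here. Whether a tag arose from the place it is listed at, from another copy, or from the ribosomal gene arrays cannot be told apart.

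Sites in each window lay on a single strand, although the rule allowed both. The plus strand held the sites of 7 windows and the minus strand those of 8. The number of sites per window ran from 4 to 37 with a median of 10. Chromosomes 1 and 2 have a pair of windows each, named a and b in the order of their coordinates. The chr2-a window, which is longer than the others, held 37 sites (18.9% of the members, 13.7 to 25.1%), in groups of 18 and 19 sites far apart. The chr16 window, with 28 sites, followed it and held more than either group.

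**Figure D1:**
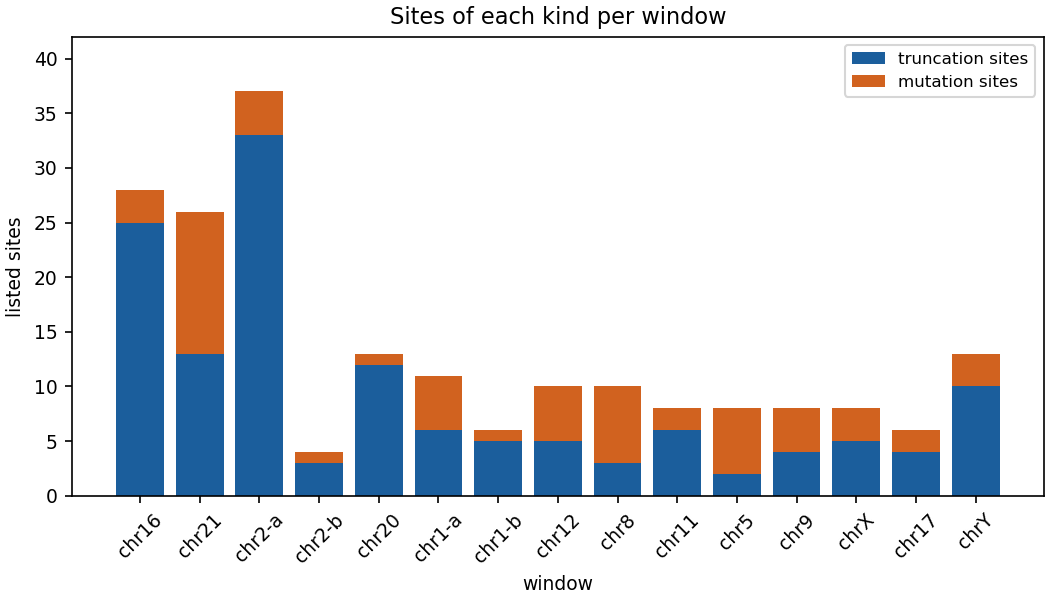
Listed sites per window (bar height, linear axis from 0), divided into truncation sites (blue) and mutation sites (orange). Truncation sites made up 33 of 37 sites in chr2-a, 13 of 26 in chr21 and 2 of 8 in chr5.

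The windows fell into 5 in which the sites spread over more than 1000 nt and 10 in which they spread over less than 500 nt, with none between 495 and 1651 nt. This division was made after the values were seen. Truncation sites were 69.4% of the members and 70.0% of the whole list. In other loci of the list with 5 or more sites, joined at gaps of at most 1000 nt, they were 81.6%. The 5 long windows held 117 sites, 93 of them truncation sites (79.5%, 71.0 to 86.4%). The 10 compact windows held 79 sites, 43 of them truncation sites (54.4%, 42.8 to 65.7%). Mutation sites were thus 45.6% (34.3 to 57.2%) of sites in compact windows and 20.5% (13.6 to 29.0%) in long ones. These intervals cover counting error only. Neighbouring sites share tags, so the intervals are too narrow, and the difference was not tested.

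**Figure D2:**
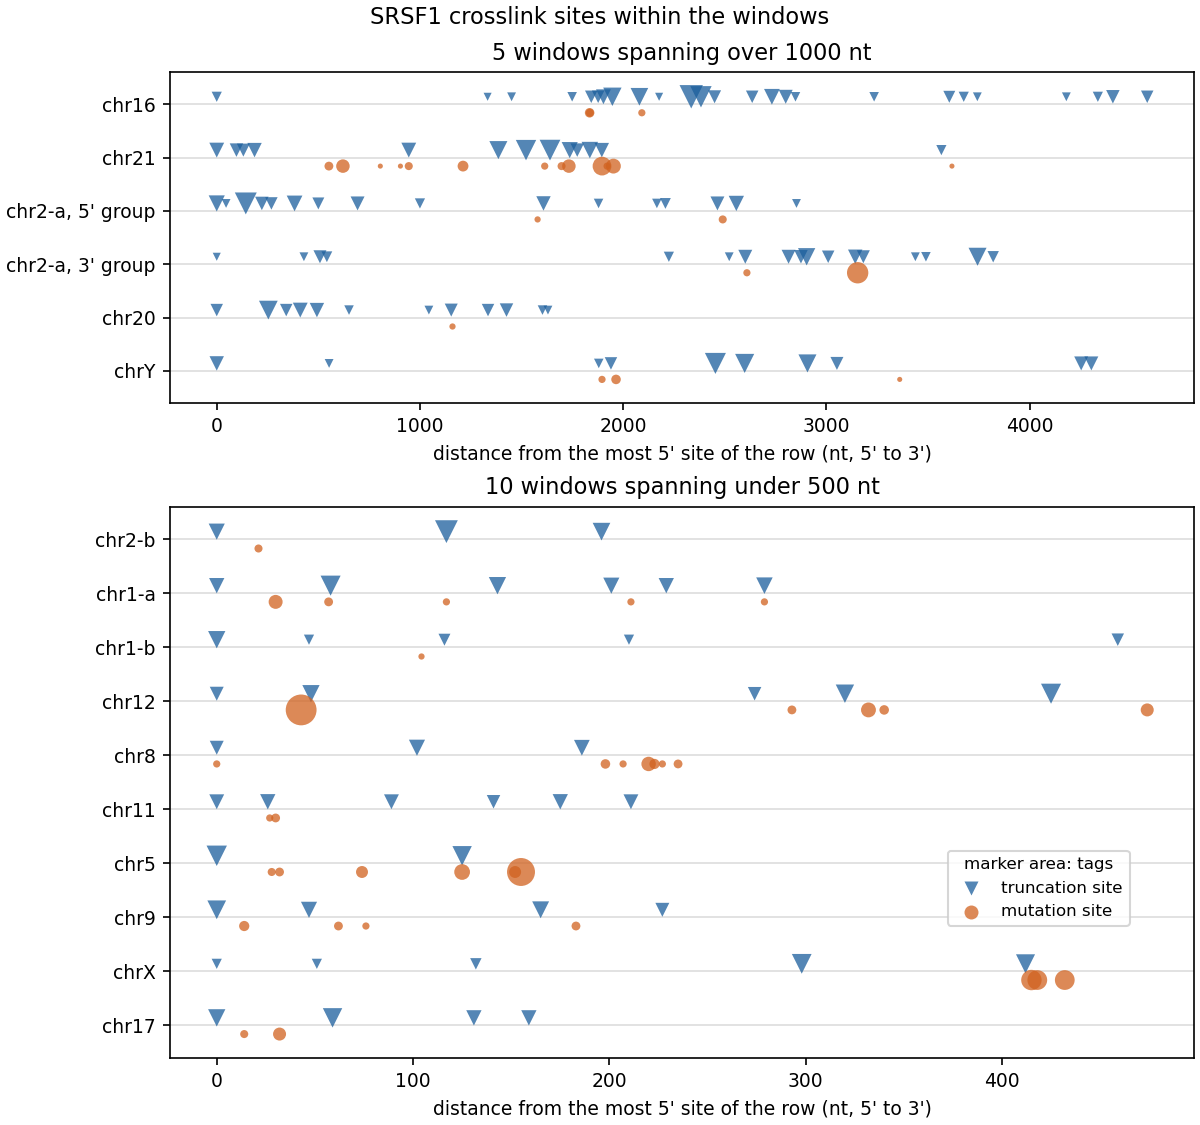
Each row is a window (chr2-a is drawn as its 5′ and 3′ groups), with distance in nt from the row's most 5′ site on the horizontal axis, read 5′ to 3′ on the strand. Triangles are truncation sites and circles are mutation sites, with area proportional to truncated or mutated tags; the large circles are the chr12 site with 73 mutated tags and the chr5 site with 60.

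Among the long windows, chr16 held 28 sites from chr16:33961263-33965862 on the plus strand, 25 of them truncation sites. These 25 sites had 5 to 42 truncated tags with a median of 12, in 18 tag clusters. The strongest were neighbours in 1 cluster with 2.11 expected tags: 33963598 to 33963618 had 42 and 33963646 to 33963666 had 35. The next site of that cluster, at 33963713 to 33963733, had 13. Another cluster upstream held 5 truncation sites between 33963106 and 33963363, with 12, 12, 17, 26 and 24 tags in 5′ to 3′ order. The 3 mutation sites of the window had 7 mutated of 28 tags (33963098 to 33963118), 5 of 29 and 4 of 228. The deepest was thus the one with the lowest mutated share, 1.75% (0.480 to 4.43%).

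The chr21 window held 26 sites from chr21:9825582-9829220 on the plus strand, 13 of each kind. A single tag cluster with 1.58 expected tags held 12 of its truncation sites, and no cluster in the whole list held more truncation sites. Those with the most tags were 9827222 to 9827242 (33 tags), 9827104 to 9827124 (32) and 9826968 to 9826988 (25). The lowest of the window was a site apart from that cluster, at 9829148 to 9829168, with 8 tags against 0.20 expected. Covering tags at its 13 mutation sites ran from 5 to 211 (median 69). The one with the most mutated tags lay at 9827478 to 9827498, with 27 of 78 tags (34.6%, 24.2 to 46.2%), and its midpoint was 1 nt 3′ of a truncation site with 16 tags. Another mutation site, at 9826203 to 9826223, had 14 mutated of 53 tags (26.4%), and no truncation site of the window lay within 300 nt of it.

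The chr2-a window held its sites in a pair of groups on the minus strand, 20525 nt apart. The 5′ group (chr2:133036302-133039175) had 16 truncation and 2 mutation sites, and the 3′ group (chr2:133011935-133015776) had 17 and 2. Truncated tags had a median of 13 (range 6 to 37) in the 5′ group and 12 (range 5 to 25) in the 3′ group. The highest truncation site was 133039012 to 133039032 in the 5′ group, with 37 tags against 0.72 expected, a ratio of 51.4. The mutation site with the most mutated tags was 133012602 to 133012622 in the 3′ group, with 35 of 92 tags (38.0%, 28.1 to 48.8%). The groups were alike in number and median, and the strongest site of each kind lay in a different group.

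The chr20 window (chr20:26188860-26190510, minus strand) held 12 truncation sites and 1 mutation site. Truncated tags ran from 6 to 27 with a median of 12, and the highest site was 26190236 to 26190256. Its mutation site, 26189334 to 26189354, had 3 mutated of 25 tags (12%) and lay 2 nt 3′ of a truncation site with 13 tags. The chrY window (chrY:10033499-10037823, plus strand) held 10 truncation and 3 mutation sites, which are 13 of the 15 sites that the list gives for chromosome Y. Its 3 highest truncation sites followed each other along the strand, with 34 tags at 10035953 to 10035973, 28 at 10036097 to 10036117 and 25 at 10036406 to 10036426. The last of them had 0.33 tags expected, a ratio of 75.8, the highest ratio among the 136 truncation sites. The mutation site of chrY with the most mutated tags, 10035464 to 10035484, had 7 of 45 (15.6%).

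Among the compact windows, chr5 (chr5:71146747-71146922, plus strand) had the fewest truncation sites, the highest expected number and the most sites per length, 45.5 per 1000 nt. Its truncation sites had 32 tags at 71146747 to 71146767 and 29 at 71146872 to 71146892, each against 4.95 expected, the highest expected number in the whole list. Its 6 mutation sites were covered by 117 to 424 tags. Their mutated shares ran from 1.18% (5 of 424 tags) at 71146775 to 71146795 to 16.1% (60 of 372 tags, 12.5 to 20.3%) at 71146902 to 71146922. The site 3 nt 5′ of that last one, with almost the same cover (373 tags), had 11 mutated tags, 2.95% (1.48 to 5.22%). The intervals of these neighbours did not overlap, but they cover counting error only and take each tag as independent. The site with 60 mutated tags was picked as the highest of the window, and the difference was not tested.

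The chrX window (chrX:108297352-108297804, plus strand) had the deepest mutation sites of the list. They lay at 108297767 to 108297787, 108297770 to 108297790 and 108297784 to 108297804, with 32 of 456, 30 of 494 and 30 of 503 tags mutated. Their shares, 7.02% (4.85 to 9.76%), 6.07% (4.13 to 8.56%) and 5.96% (4.06 to 8.41%), had overlapping intervals. Of its 5 truncation sites, the 3 nearest the 5′ end had 8, 8 and 10 tags against 0.54 expected. The other two, at 108297650 to 108297670 and 108297764 to 108297784, had 30 and 28 against 3.93. The 3 mutation sites lay 3, 6 and 20 nt 3′ of the last one.

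The chr12 window (chr12:127650487-127650981, minus strand) held 5 sites of each kind. Its mutation site at 127650918 to 127650938 had 73 of 97 tags mutated (75.3%, 65.5 to 83.5%), the most mutated tags of any listed site. It lay 5 nt 5′ of a truncation site with 23 tags. The other mutation sites of chr12 had shares from 2.33% (7 of 301 tags) to 24.5% (13 of 53 tags, 13.8 to 38.3%). The truncation sites had 14, 15, 23, 26 and 31 tags, the highest at 127650536 to 127650556. Whether the H1299 genome differs from hg19 at the 75.3% site was not tested.

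The chr8 window (chr8:70602353-70602608, minus strand) had more mutation than truncation sites, 7 against 3. Truncated tags were 15, 20 and 19 in 5′ to 3′ order, against 1.57 expected, with the highest at 70602486 to 70602506. A run of 6 mutation sites followed the last truncation site within 12 to 49 nt on its 3′ side. They were covered by 172 to 287 tags, with mutated shares of 1.43 to 5.57%. The highest was 70602368 to 70602388, with 16 of 287 tags (3.22 to 8.90%). The remaining mutation site stood at the same interval as a truncation site.

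The chr1-a window (chr1:91852862-91853161, minus strand) held 6 truncation sites in 1 cluster with 2.98 tags expected. Their truncated tags were 18, 31, 23, 20, 18 and 21 in 5′ to 3′ order, with the highest at 91853083 to 91853103. Its 5 mutation sites were covered by 70 to 188 tags, and the one with the most mutated tags, at 91853111 to 91853131, had 15 of 141 (10.6%, 6.08 to 16.9%). The chr9 window (chr9:79186676-79186923, plus strand) had 4 truncation sites of 27, 20, 22 and 15 tags against 2.60 expected. Its 4 mutation sites were covered by 77 to 191 tags, with mutated shares of 3.14 to 7.79%. Its highest sites of each kind were 79186676 to 79186696, with 27 truncated tags, and 79186690 to 79186710, with 8 mutated tags.

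The chr11 window (chr11:85195004-85195235, plus strand) had truncation sites of like height. Its 6 truncation sites had 14 to 18 tags, all against 1.95 expected, and the first of the pair with 18 tags lay at 85195030 to 85195050. Its 2 mutation sites had 4 of 114 and 6 of 124 tags mutated, the latter at 85195034 to 85195054. In chr17 (chr17:33478166-33478345, minus strand) the 4 truncation sites had 23, 29, 18 and 18 tags against 1.62 expected, with the highest at 33478266 to 33478286. A mutation site at 33478293 to 33478313 had 13 of 74 tags mutated (17.6%, 9.70 to 28.2%), and a site 18 nt from it had 5 of 101 (4.95%).

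The remaining compact windows held 4 and 6 sites. In chr2-b (chr2:230045511-230045727, minus strand) the truncation sites were 230045707 to 230045727 with 20 tags against 0.67 expected, 230045590 to 230045610 with 40 against 2.64, and 230045511 to 230045531 with 24 against 2.64. Its mutation site, 230045686 to 230045706, had 5 of 71 tags mutated (7.04%, 2.33 to 15.7%). In chr1-b (chr1:108113126-108113605, minus strand) 5 truncation sites each lay in a cluster of their own, with 8 to 23 tags against 0.35 to 0.98 expected. The highest was 108113585 to 108113605. Its 1 mutation site, 108113481 to 108113501, had 3 of 3 tags mutated, a share whose interval reaches down to 29.2%. The chr1-b window was thus the only compact window without a mutation site covered by 50 or more tags.

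Truncation sites in the windows rested on more tags than the rest of the list, and on more expected tags. The median was 15 truncated tags (quartiles 9 and 20, range 5 to 42), against 6 (quartiles 5 and 9, range 4 to 31) for the 4595 truncation sites outside. Of the 136, 38 (27.9%) had 20 or more truncated tags, against 2.18% of all 4731 truncation sites. Loci with high tag counts had been seen in these data before the windows were set, so nothing is read from this count. The lowest P in the list stood at 17 of the 136 (12.5%), against 2.96% of all truncation sites. Among the 11 truncation sites of the list with 31 or more tags, 10 were members, while members were 136 of all 4731 truncation sites. The cut of 31 was taken from these same values. In every window the median was at least 10, and the window medians ran from 10 in chrX to 30.5 in chr5. In compact windows the median was 19 tags (8 to 40), and in long windows 13 (5 to 42).

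**Figure D3:**
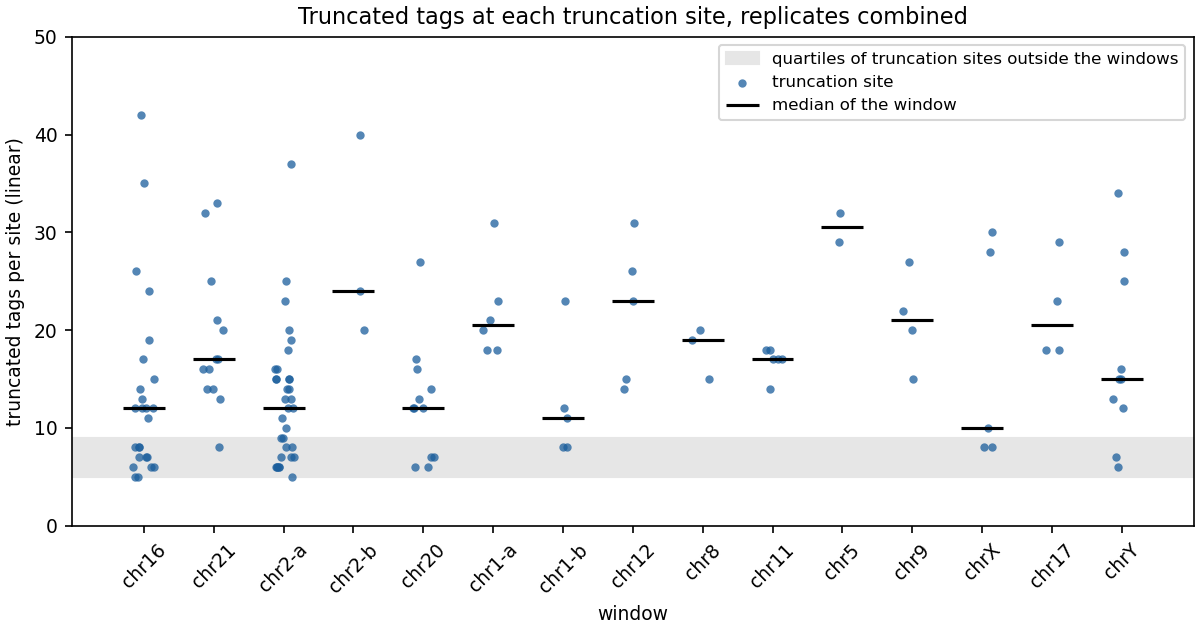
Truncated tags of each truncation site (points, linear axis from 0) by window, with the window median as a black line; the grey band gives the quartiles, 5 and 9, of truncation sites outside the windows. Every median lies above the band, and chr16, chr21, chr2-a, chr20, chr1-b, chrX and chrY also have sites inside it.

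The number of tags expected per position had a median of 1.08 in the windows (quartiles 0.443 and 1.67) and 0.19 outside (quartiles 0.12 and 0.30). It was 2 or more at 22 of the 136 sites (16.2%), against 0.592% of all truncation sites, 28 in number. The ratio of observed to expected tags went the other way. Its median was 14.5 in the windows (quartiles 10.2 and 23.1) against 35.7 outside (26.5 and 44.4). No listed truncation site had under 4 truncated tags or a P above 0.001, so low ratios cannot appear at low expected numbers; the part of this in the lower median was not tested.

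Within ranges of expected number, the medians of the windows and the rest of the list were closer. The ratio was still lower in the windows in every range except 0.5 to under 1. From 0.5 to under 1 expected tag, the median was 12 truncated tags at 28 sites in the windows and 12 at 373 sites outside, and the ratios were 19.4 and 19.2. From 1 to under 2, the medians were 17 tags (49 sites) and 16.5 (58 sites), with ratios of 11.1 and 13.3. Below 0.5, they were 7 tags (37 sites) and 6 (4158 sites), with ratios of 28 and 36.8. From 2 upward, they were 25 tags (22 sites) and 22.5 (6 sites), with ratios of 7.66 and 8.25. The classes were set after the values were seen, and these differences were not tested.

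**Figure D4:**
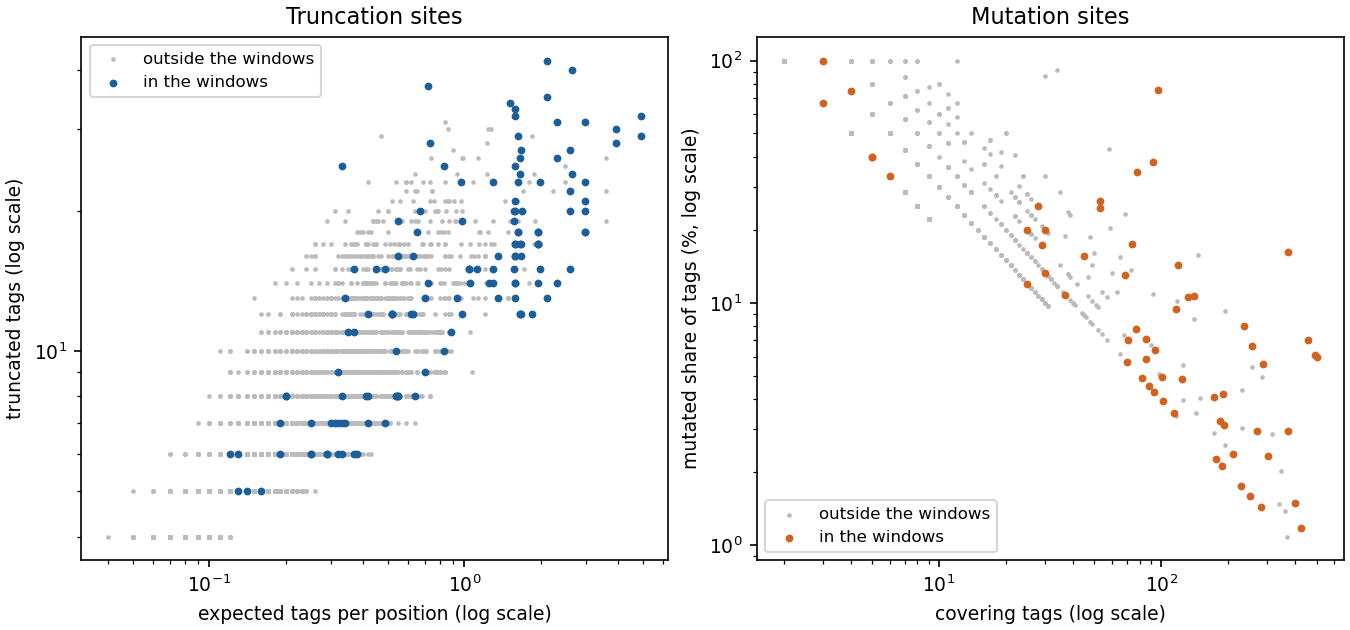
Left: truncated tags against expected tags per position for truncation sites (log axes). Right: mutated share in percent against covering tags for mutation sites (log axes); coloured points are sites in the windows and grey points the rest of the list. On the left the windows extend the cloud to 4.95 expected and 42 truncated tags; on the right they fill its deep end up to 503 covering tags, with the chr12 site at 75.3% standing above.

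Most tag clusters in the windows held a single truncation site. The 136 sites lay in 81 clusters, of which 58 had a single site, 11 had 2 and 12 had 3 or more (56 sites together). In the list as a whole, 52 of 4370 clusters had 3 or more. The gap between neighbouring truncation sites of a window had a median of 97 nt (quartiles 58 and 193) and was never under 26 nt. Mutation sites could lie closer, with 10 of 45 neighbouring pairs at most 10 nt apart and the closest 1 nt apart.

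Mutation sites in the windows were deep. They were covered by a median of 99 tags (quartiles 53 and 215, range 3 to 503), against 4 (quartiles 3 and 8, range 2 to 369) for the 1963 outside. Of the 60, 46 were covered by 50 or more tags (76.7%), against 4.35% of all 2023 mutation sites. At 100 or more covering tags the list had 51 mutation sites, and 30 of them were members, while members were 60 of all 2023 mutation sites. The mutated tags numbered 10 or more at 18 of the 60 (30%), against 1.88% of all. Since the windows were set after loci with high tag counts had been seen, nothing is read from these counts either.

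The mutated share was low, with a median of 7.03% (quartiles 4.03 and 17.3%) in the windows and 50% outside. No listed mutation site had under 2 mutated tags, so low shares cannot appear at low cover. The part of this in the lower median was not tested. Cover differed with the mutated share, so the medians are also given by classes of cover, set after the values were seen and not tested. From 2 to under 10 covering tags they were 53.3% at 6 sites in the windows and 66.7% at 1630 outside. From 10 to under 50 they were 16.4% at 8 sites and 20% at 291. From 50 to under 100 they were 7.43% at 16 sites and 10.5% at 21. From 100 to under 200 covering tags they were 4.14% at 14 sites in the windows and 3.998% at 12 outside. At 200 or more they were 2.95% at 16 sites and 2.87% at 9. The median was thus lower in the windows in the 3 classes of less cover and slightly higher in the other two. Of the 88 mutation sites in the list with 50 or more covering tags, 46 were members, and of the 8 among them with a mutated share of 20% or more, 5 were members. They were the chr12 site at 75.3%, the chr2-a site at 38.0%, the chr21 sites at 34.6% and 26.4%, and a further chr12 site, 127650487 to 127650507, at 24.5%. These 5 were named after their values were seen.

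Most mutation sites had a truncation site close by. Within 50 nt on the same strand lay a truncation site for 52 of the 60 (86.7%, 75.4 to 94.1%), against 280 of 1963 outside (14.3%, 12.7 to 15.9%). In other loci of the list with 5 or more sites (57 loci with 515 sites, joined at gaps of at most 1000 nt) it was 56 of 95 (58.9%, 48.4 to 68.9%). Depth differed with it: mutation sites of those other loci were covered by a median of 24 tags, and the part of depth and site density in this difference was not tested. Of the 52 sites, 35 lay 3′ of the nearest truncation site, 13 lay 5′ and 4 shared its interval. Outside, the same counts were 189, 77 and 14. Among mutation sites 1 to 4 nt away, 5 in the windows were 3′ and 2 were 5′, while in the rest of the list 6 were 3′ and 31 were 5′. In the other loci with 5 or more sites, 4 were 3′ and 6 were 5′. These counts were not tested against each other. The 5 came from chr11 (1 and 4 nt), chr21 (1 nt), chr20 (2 nt) and chrX (3 nt). The 4 shared intervals were in chr21, chr1-a, chr8 and chr5.

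The windows were also compared for sites at the same relative places. The count is the best over all shifts, so some sites coincide through the search itself. For each of the 105 pairs of windows, the shift along the strand was found that made the most sites coincide within 2 nt, with truncation sites matched to truncation sites and mutation sites to mutation sites. At most 4 sites coincided, in 5 pairs, and 36 pairs had 3. In chr16 and chr20, 4 truncation sites followed each other at 0, 255, 652 and 1155 nt in chr16 and at 0, 254, 651 and 1154 nt in chr20. Their tags were 24, 42, 19 and 7 in chr16 and 12, 27, 7 and 13 in chr20, so the second, the highest of chr16 (33963598 to 33963618), met the highest of chr20 (26190236 to 26190256). Spacing alike to a few nt was a condition of the search, so nothing is read from it. The order of the tag counts differed between chr16 and chr20.

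In chr16 and chr21, 4 truncation sites lay at 0, 852, 1293 and 1798 nt and at 0, 848, 1289 and 1798 nt. Their tags were 35, 7, 8 and 6 in chr16 and 14, 17, 25 and 16 in chr21. In chr16 and the 3′ group of chr2-a, 3 truncation sites and a mutation site lay at 0, 198, 331 and 343 nt and at 0, 195, 328 and 340 nt. The mutation site had 4 mutated of 228 tags in chr16 and 35 of 92 in chr2-a. In chr8 and chrX, a truncation site was followed by 3 mutation sites at 118, 121 and 133 nt in chr8 and at 117, 120 and 134 nt in chrX. The mutated tags were 16, 8 and 6 in chr8 and 32, 30 and 30 in chrX. In chr21 and chr1-a, the set was 2 sites of each kind, within 117 nt.

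Such counts also arise where many sites lie in few nucleotides. Of all 105 pairs of windows, 41 (39.0%) had 3 or more coinciding sites, against 146 of the 1596 pairs (9.15%) among the 57 other loci with 5 or more sites. Among windows and loci of 8 to 13 sites, it was 14 of 36 pairs (38.9%) against 7 of 66 (10.6%). The median span there was 300 nt in the 9 windows and 2212 nt in the 12 other loci, and its part in the difference was not tested. The highest count among the other loci, 7, was above that of any pair of windows.

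Distances from the windows to other listed sites were also taken. No listed site outside lay within 1000 nt of an edge, and 14 of the 15 windows had none within 10 kb. The member nearest to an edge was 509 nt inside it, in chrY. The nearest site outside lay 3347 nt beyond the 3′ edge of chr21. It was 1 of 5 plus-strand sites within 10 kb of that edge, with 8, 5, 9 and 6 truncated tags at 4 truncation sites and 6 of 90 tags mutated at the mutation site, 9834901 to 9834921. Within 100 kb, 13 windows had no other listed site, and the chr17 window had 1, at 93.6 kb. The median distance from a window to the nearest other site was 446 kb, on either strand. The windows were set after loci of these data had been seen, so empty margins can follow from that choice. Like distances were not computed for other loci, so nothing is read from these values.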

How the data were processed

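Tags came from 2 SRSF1 HITS-CLIP replicates of H1299 cells. Named per the submitters' processing notes are cutadapt (no version), BWA 0.7 and the build hg19. The sources used here do not give the settings, duplicate removal, the treatment of reads with several places or the step that combined the replicates. The deposited file is a single list of sites whose tag counts are whole numbers over both replicates. Library depth is unknown.

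Computed here, with Python 3.11.15, pandas 2.3.3 and scipy 1.17.1, were 1-based positions, membership by midpoint, medians, distances between midpoints, loci joined at gaps of at most 1000 nt, and coinciding sites within 2 nt. Shares have exact Clopper-Pearson 95% intervals, which cover counting error only. On simulated sites, the distance and coincidence counts recovered what had been planted. That check covers the counting only and does not tell how many sites coincide by chance in windows like these. No test between samples was possible. The members, windows and lists were chosen with earlier results of these data known. Named by rule are, for each window, the highest truncation and mutation site by tags (ties: the more 5′). The rule also names every site of a window of at most 5, and the coinciding sites of the pairs with the most. Further sites were named after their values were seen.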

Additional observations from a re-analysis of the deposited data

How the results depend on the processing

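No paired analysis was possible because the list has no column per replicate, and for the same reason leaving out a replicate, 1 of the 27 alternatives, was not run. Of the 26 run, 22 left their result within 1.5 times (counts) or within its 95% interval (shares and medians). The number of sites, 196, fell to 113 when sites within 50 nt on a strand were merged, and was 157 to 201 under the other 5 alternatives. Taking the median over window medians moved the truncated tags from 15 to 17 and the ratio of observed to expected tags from 14.5 to 12.7. The share of mutation sites near a truncation site was 28.3% at 10 nt instead of 86.7% at 50 nt. Without chr2-a the share of truncation sites was 64.8% against 69.4%. Depth limits the mutated shares, since 6 of the 60 mutation sites had under 10 covering tags.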

Other observations

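The authors' P did not order the strongest truncation sites of the windows. The lowest listed value, 1e-100, stood at 17 of the 136 sites (12.5%, against 2.96% of all truncation sites), and the next lowest value in the whole list was 1.11e-16. In chr16, the site with 42 truncated tags against 2.11 expected was listed at 1.78e-14, as was its neighbour with 35 tags, while a site with 26 tags against 1.65 expected was listed at 1e-100. In chr12, sites with 31 and 26 tags shared the value 2.64e-14. Of the 119 sites above the lowest value, 6 had both more truncated tags and a higher ratio of observed to expected tags than some site at it. The cause was not tested.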
